A study of Mus musculus with 4 samples.

Results

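The 10 genes described here encode secreted inflammatory signals: the CC chemokines Ccl2, Ccl6, Ccl7 and Ccl9, the CXC chemokines Cxcl1, Cxcl10, Cxcl12 and Cxcl16, and the cytokines Il6 and Il1b. They were found by gene name, and all 10 had a row among the 48432 gene rows of the authors' table. The cells were cardiomyocytes, the contractile cells of the heart, taken from perfused mouse hearts (the Langendorff method, which feeds the heart through its coronary vessels). One group, called MHC control, came from mice whose genotype label is MHC. The other, called Rbfox2 OE, came from mice with the genotype label RbFox2, which overexpress the RNA-binding splicing regulator RBFOX2. The study's title names the non-muscle isoform of RBFOX2 and heart conduction in myotonic dystrophy as its subject. Both groups were of the C57BL x FVB strain and ate a doxycycline diet for 3 days, and each was sequenced as 2 libraries of polyadenylated RNA. The labels do not expand MHC, and they give neither the promoter behind the transgene nor the age, sex or number of the animals.

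Chemokines are small secreted proteins that draw leukocytes along a concentration gradient by binding receptors that couple to G proteins. The CC class carries adjacent cysteines near its start, and the CXC class has another residue between them. Many CC ligands attract monocytes, and the CXC ligands that carry the Glu-Leu-Arg motif attract neutrophils. IL-6 signals through its receptor and the shared subunit gp130 to STAT3, and IL-1 beta is released as an active cytokine after cleavage by caspase-1. In the injured heart these signals come from macrophages, fibroblasts and endothelial cells as well as from myocytes, and NF-kappaB, a transcription factor of inflammation, controls many of their genes.

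Because NF-kappaB is the best known regulator shared by these genes, the RefSeq promoters (GRCm38.p6) were searched for its consensus in the 250 bases before the annotated start. Entries were matched by symbol for 7 of the 10 genes. The consensus was found on either strand in 4 of the 7, namely Ccl9, Cxcl1, Cxcl10 and Il6, and in 7.25% of 32851 RefSeq windows of the same length. The AP-1 motif TGANTCA was found in Ccl9, Cxcl10 and Il6, against 6.75% of all windows, and the TATA box TATAAA in Ccl9 and Il1b, against 12.4%. A match describes the letters only. The 120 bases before the start are shown for the 4 genes with a match and for Il1b, which had no NF-kappaB match and the highest ratio of the 10. They read 5′ to 3′ on the strand of the gene, with the NF-kappaB matches in capitals. Overlapping matches are joined in Cxcl1 and in Cxcl10, and a further match of Cxcl10, 159 to 150 bases before the start, lies outside the bases shown.
Cxcl1 (chr5:90891125-90891244, plus strand): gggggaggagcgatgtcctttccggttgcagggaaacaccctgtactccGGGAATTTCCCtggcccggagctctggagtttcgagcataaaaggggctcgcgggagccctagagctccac
Il6 (chr5:30012994-30013113, plus strand): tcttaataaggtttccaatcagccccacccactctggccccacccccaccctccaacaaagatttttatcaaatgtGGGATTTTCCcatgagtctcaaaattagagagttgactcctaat
Cxcl10 (chr5:92348890-92349009, minus strand): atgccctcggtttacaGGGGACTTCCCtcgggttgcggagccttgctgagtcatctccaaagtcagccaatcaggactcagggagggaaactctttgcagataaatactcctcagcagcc
Ccl9 (chr11:83578637-83578756, minus strand): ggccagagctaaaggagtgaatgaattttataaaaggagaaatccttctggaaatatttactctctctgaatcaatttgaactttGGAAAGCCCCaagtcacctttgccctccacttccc
Il1b (chr2:129371140-129371259, minus strand): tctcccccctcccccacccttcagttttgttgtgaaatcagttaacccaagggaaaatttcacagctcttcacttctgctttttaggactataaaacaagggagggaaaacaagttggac

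The values are FPKM (fragments scaled by transcript length and by library size), which allow levels to be compared between genes. Each gene has 1 pooled value per group in the authors' table. The values in parentheses after a level are the authors' lower and upper bounds, whose level is not given in the headers. No value per library was analysed here, so there is no spread between libraries, no test between the groups and no p-value, and the depth of the libraries is unknown. A difference was described by bounds that do not overlap between the groups (separate bounds) and, apart from that, by a log2 ratio of 1 or more in either direction (2-fold). The log2 ratio divides Rbfox2 OE by MHC control after 1 FPKM is added to each. As a check of the labels, Rbfox2 itself stood at 14.7 FPKM in MHC control and 293 FPKM in Rbfox2 OE. The cardiomyocyte markers Myl2 and Tnnt2 stood at 24688 and 10609 FPKM in MHC control, while Myh6 and Mb were listed at 0 in both groups with the status HIDATA, which Cuffdiff gives to loci with too many fragments to estimate.

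All 10 genes had a higher value in Rbfox2 OE than in MHC control. The bounds were separate for 7 of the 10, Ccl2, Ccl6, Ccl7, Ccl9, Cxcl16, Il6 and Il1b, and overlapped for Cxcl1, Cxcl10 and Cxcl12. The 2-fold mark was passed by 8, the same 7 and Cxcl10. Comparisons used genes whose average of the 2 groups reached 1 FPKM. Of these 11699 genes, 6.67% were higher and 9.33% were lower with separate bounds, and 6.97% were at least 2-fold higher, 815 genes against 1173 that were at least 2-fold lower. The summed level of the 10 genes was 112 FPKM in MHC control and 325 FPKM in Rbfox2 OE, a ratio of 2.89. Their median log2 ratio was 1.99, where all genes compared had a median of -0.06.

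Il6 and Il1b were under 1 FPKM in MHC control and met the minimum mean through Rbfox2 OE, so that they had to differ. Among the other 8 the bounds were separate for 5. By that rule 4.99% of the 11346 genes at 1 FPKM or more in MHC control were higher and 9.95% lower. The median log2 ratio was 1.65 for these 8 and -0.11 for all genes at that level. When the groups were rescaled to totals that leave out mitochondrial genes and the top 10 genes of each group, values of Rbfox2 OE went up by 0.15 on the log2 scale. The rescaling turned the split of all genes with separate bounds from 780 higher and 1091 lower to 1027 higher and 827 lower. The 7 of the 10 genes that were already higher kept separate bounds, and no other of the 10 gained them. The 7 had to keep them, since only values and bounds of Rbfox2 OE were raised.

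**Figure D1:**
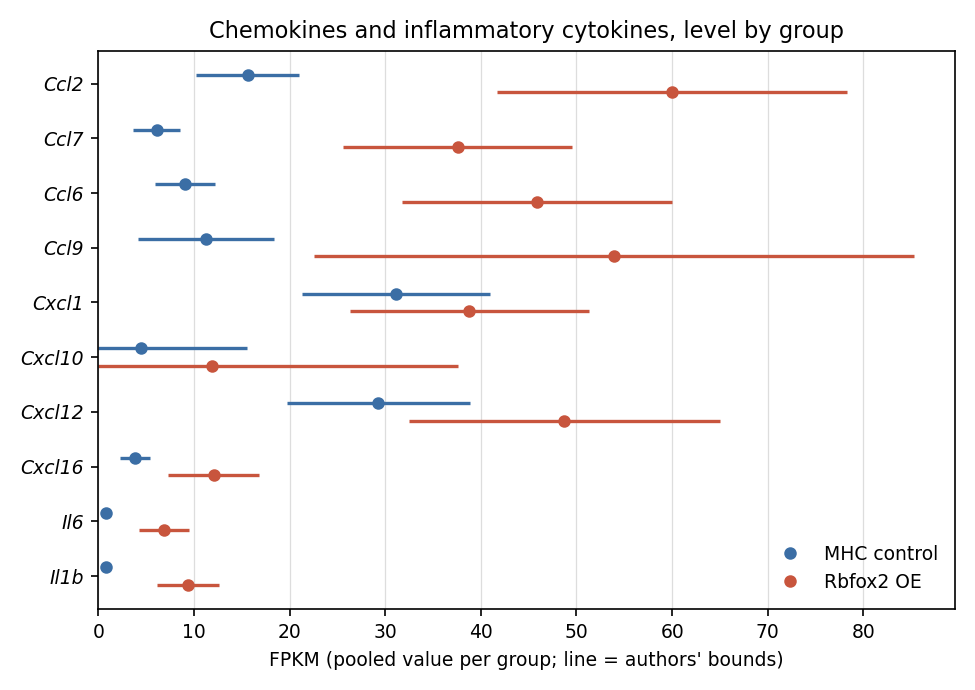
Level of each of the 10 genes in FPKM (x axis) in MHC control (blue) and Rbfox2 OE (red). Points are the authors' pooled values and lines are the authors' bounds. Lines of the groups do not overlap for 7 genes and overlap for Cxcl1, Cxcl10 and Cxcl12.

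Ccl2 and Ccl7 are monocyte chemoattractants that act through the receptor Ccr2. Ccl2 (chromosome 11, 82035571 to 82037453, plus strand) stood at 15.6 FPKM (10.3 to 21.0) in MHC control and at 59.9 FPKM (41.6 to 78.3) in Rbfox2 OE. This is a plain ratio of 3.84, and the nearest and the farthest bounds give ratios of 1.98 and 7.63. Ccl7, its neighbour (82045712 to 82047525, plus strand), stood at 6.11 FPKM (3.65 to 8.58) and at 37.6 FPKM (25.6 to 49.6), a ratio of 6.15. The lower bounds in Rbfox2 OE thus lay above the upper bounds in MHC control for both genes. Ccl2 was 2.56 times the level of Ccl7 in MHC control and 1.59 times in Rbfox2 OE.

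Ccl6 and Ccl9 are CC chemokines of rodents, made largely by myeloid cells, that bind Ccr1. They lie side by side on the minus strand of chromosome 11, Ccl9 at 83572919 to 83578636 and Ccl6 at 83587882 to 83593087. Ccl6 stood at 9.08 FPKM (5.96 to 12.2) in MHC control and at 45.9 FPKM (31.8 to 59.9) in Rbfox2 OE, a ratio of 5.05. Ccl9 stood at 11.2 FPKM (4.10 to 18.3) and at 53.9 FPKM (22.6 to 85.3), a ratio of 4.81. The bounds of Ccl9 were wider, and its nearest bounds gave a ratio of 1.23. The level of Ccl6 relative to Ccl9 was 0.810 in MHC control and 0.850 in Rbfox2 OE. No 50-base sequence of the annotated Ccl6 transcripts occurred in another gene, and 1.97% of those of Ccl9 did, in 250 other genes.

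Cxcl1 attracts neutrophils through Cxcr2. It was the highest of the 10 in MHC control, at 31.1 FPKM (21.3 to 41.0), and stood at 38.8 FPKM (26.3 to 51.3) in Rbfox2 OE, a ratio of 1.24 with overlapping bounds. Its gene (chromosome 5, 90891241 to 90893115, plus strand) is followed by Cxcl2, another ligand of Cxcr2. Cxcl2 stood at 6.63 FPKM (3.00 to 10.3) in MHC control and at 52.1 FPKM (29.4 to 74.8) in Rbfox2 OE, a ratio of 7.85. Cxcl2 was therefore at 0.213 of the level of Cxcl1 in MHC control and at 1.34 times its level in Rbfox2 OE. Whether the ratios of these neighbours differ could not be tested with 1 value per group. No 50-base sequence of Cxcl1 transcripts was shared with another gene, and 5.84% of those of Cxcl2 were shared, with Cxcl3 alone.

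Cxcl10, an interferon-induced ligand of Cxcr3 that attracts T cells, had the widest bounds of the 10 relative to its level. It stood at 4.43 FPKM (0 to 15.5) in MHC control and at 11.9 FPKM (0 to 37.6) in Rbfox2 OE, and each upper bound lay more than the value itself above it, by 251% and 216% of the value. Its gene (chromosome 5, 92346638 to 92348889, minus strand) lies within Art3, a gene on the opposite strand with bounds that overlapped between the groups, which stood at 443 FPKM in MHC control and 349 FPKM in Rbfox2 OE. The libraries were stranded, but whether strand was used in estimating FPKM is not given in the sources used here. The log2 ratio of Cxcl10 was 1.25, and a pseudocount of 5 FPKM took it to 0.84, under the 2-fold mark.

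Cxcl12, which binds Cxcr4 and the scavenging receptor Ackr3, is made constantly by stromal and endothelial cells and holds stem cells in their niche. It stood at 29.3 FPKM (19.7 to 38.8) in MHC control and at 48.7 FPKM (32.5 to 65.0) in Rbfox2 OE, a ratio of 1.67 with overlapping bounds. Its gene lies on chromosome 6 (117168535 to 117181367, plus strand), apart from the other chemokine genes named here. Cxcl16 is made as a membrane-bound protein, also takes up oxidized lipoprotein, and binds Cxcr6 on T cells. Cxcl16 (chromosome 11, 70453983 to 70459984, minus strand) stood at 3.84 FPKM (2.24 to 5.44) in MHC control and at 12.1 FPKM (7.33 to 16.8) in Rbfox2 OE, a ratio of 3.15. The bounds of Cxcl16 were separate, and with a pseudocount of 5 FPKM its log2 ratio went from 1.44 to 0.95, under the 2-fold mark. Ccl2, Ccl6, Cxcl16 and Il1b, like Cxcl10, overlap a gene on the opposite strand, and their values are uncertain to that extent. Unlike Art3, the genes that overlap these 4 were low. Gm17268, which overlaps Ccl2, was listed at 0 in both groups. E230016K23Rik, which overlaps Ccl6, was at 0.00696 FPKM in MHC control and 0.0742 FPKM in Rbfox2 OE. Zmynd15, which overlaps Cxcl16, was at 0.269 and 1.29 FPKM.

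The cytokines Il6 and Il1b were the lowest of the 10 in both groups and had the highest plain ratios. Il6 (chromosome 5, 30013114 to 30019981, plus strand) stood at 0.827 FPKM (0.345 to 1.31) in MHC control and at 6.88 FPKM (4.29 to 9.48) in Rbfox2 OE. Its plain ratio of 8.33 lay between 3.28 for the nearest bounds and 27.5 for the farthest. Il1b (chromosome 2, 129364570 to 129371139, minus strand) stood at 0.781 FPKM (0.258 to 1.30) and at 9.38 FPKM (6.16 to 12.6), a ratio of 12.0, with 4.73 and 48.8 from the bounds. The antisense gene Il1bos, which overlaps Il1b, was at 0.0113 and 0.0125 FPKM. A pseudocount of 5 FPKM took the log2 ratios from 2.11 to 1.03 for Il6 and from 2.54 to 1.32 for Il1b, since it shrinks the ratios of low genes.

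The order of the levels differed between the groups, although most neighbours in either order had overlapping bounds. In MHC control Cxcl1 and Cxcl12 led and made 27.7% and 26.1% of the summed level of the 10, ahead of Ccl2 at 13.9%. In Rbfox2 OE Ccl2 led with 18.4%, followed by Ccl9 with 16.6%, Cxcl12 with 15.0%, Ccl6 with 14.1%, Cxcl1 with 11.9% and Ccl7 with 11.6%. The bounds of neighbours in the order were separate at 1 place in each group: between Cxcl16 and Il6 in MHC control and between Ccl7 and Cxcl16 in Rbfox2 OE. The 4 genes from Cxcl16 downward in Rbfox2 OE, Cxcl16, Cxcl10, Il1b and Il6, made 3.72%, 3.66%, 2.89% and 2.12%. Among the 11699 genes compared, Il1b ranked 56 by log2 ratio, Ccl7 70, Ccl6 95, Ccl9 102, Il6 112 and Ccl2 166. Cxcl16 ranked 375, Cxcl10 494, Cxcl12 1464 and Cxcl1 3315. The ranks of Il1b and Il6 were partly fixed in advance, since both met the minimum mean through Rbfox2 OE alone.

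Chemokine genes lie in clusters, and 6 of the 8 chemokines described here belong to 4 such stretches. In these stretches the ligands are named by position, a choice made after their values were seen. On chromosome 11 the stretch from Ccl2 to Ccl1 (82035571 to 82305690) holds Ccl2, Ccl7, Ccl11, Ccl12, Ccl8 and Ccl1. All of these but Ccl1, which was near 0 in both groups, were higher with separate bounds, with log2 ratios between 1.83 and 2.58. The highest ratio was that of Ccl8, which was at 0.246 FPKM in MHC control and met the minimum mean through Rbfox2 OE alone. The summed level of the 6 ligands was 28.0 FPKM in MHC control and 131 FPKM in Rbfox2 OE, a ratio of 4.67. The stretch from Ccl5 to Ccl4 (83525778 to 83664683) holds Ccl5, Ccl9, Ccl6, Ccl3 and Ccl4. All 5 were higher with separate bounds, with log2 ratios from 1.27 for Ccl3 to 2.52 for Ccl5, and a ratio of the sums of 4.71. Ccl5, at 0.837 FPKM in MHC control, also met the minimum mean through Rbfox2 OE alone. Over all genes compared, 6.67% were higher with separate bounds.

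On chromosome 5 the CXC stretch from Cxcl5 to Cxcl2 (90759360 to 90905938) had a ratio of the sums of 2.87. In it, Cxcl5 stood at 0.111 FPKM in MHC control and 7.30 FPKM in Rbfox2 OE, and Cxcl3 was listed at 0 and stood at 3.84 FPKM. The platelet chemokine Pf4 stood at 7.34 and 26.9 FPKM, and Ppbp at 0.0733 and 1.22 FPKM. These 4 and Cxcl2 had separate bounds, although the mean of Ppbp was under 1 FPKM. Cxcl5 and Cxcl3 met the minimum mean through Rbfox2 OE alone. Cxcl1 had overlapping bounds, and Cxcl15 was near 0 in both groups. In the stretch of the interferon-induced ligands Cxcl9, Cxcl10 and Cxcl11 (92321347 to 92365485) no bounds were separate. Cxcl9 stood at 5.42 FPKM (1.08 to 9.76) in MHC control and 16.7 FPKM (0.389 to 33.0) in Rbfox2 OE, so the wide bounds were not those of Cxcl10 alone.

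**Figure D2:**
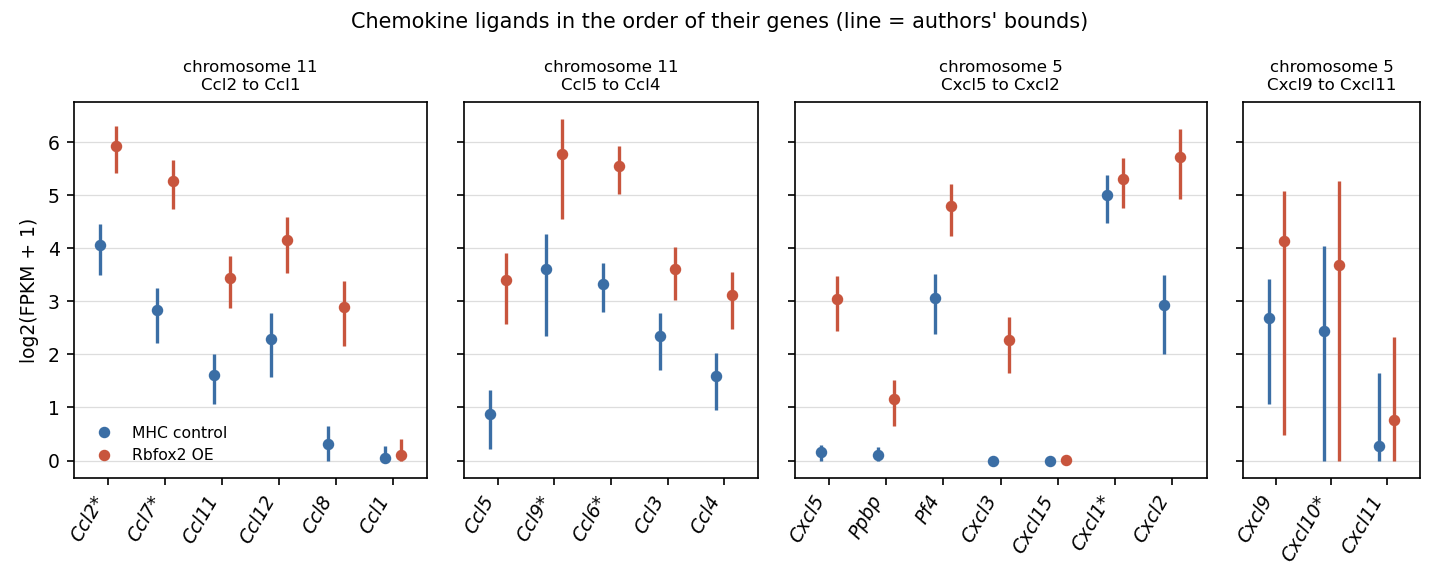
Chemokine ligands in the order of their genes within 4 stretches of chromosomes 11 and 5, on a scale of log2(FPKM + 1) (y axis), in MHC control (blue) and Rbfox2 OE (red). Points are the authors' pooled values, lines are the authors' bounds, and an asterisk marks the genes among the 10. Cxcl1 has overlapping bounds beside Cxcl2, whose bounds are separate, and the lines of Cxcl9, Cxcl10 and Cxcl11 overlap.

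Among 30 other chemokine ligands, 20 met the minimum mean, and the bounds of 16 were separate and higher and those of 0 lower. Over all genes compared, 6.67% were higher by this rule. Of these 20 genes, 8 met the minimum through Rbfox2 OE alone. Of the 12 at 1 FPKM or more in MHC control, 9 were higher with separate bounds and 0 were lower. Among all genes at that level in MHC control, 4.99% were higher. The largest log2 ratios with separate bounds were those of Cxcl5 (2.90), Cxcl2 (2.80), Ccl8 (2.58) and Ccl5 (2.52). Cxcl5 and Cxcl2 attract neutrophils, Ccl8 monocytes and Ccl5 T cells. Cxcl5, Ccl8 and Ccl5 were under 1 FPKM in MHC control and met the minimum through Rbfox2 OE alone, so that they had to be higher. The endothelial chemokine Cx3cl1 stood at 5.58 FPKM in MHC control and 5.06 FPKM in Rbfox2 OE. By class, and with the 8 chemokines of the 10 counted in, 14 of the 16 CC ligands compared and 7 of the 11 CXC ligands compared had separate bounds. Of the ligands compared, 5 CC and 3 CXC ligands met the minimum through Rbfox2 OE alone. At 1 FPKM or more in MHC control the counts were 10 of 11 CC and 4 of 8 CXC ligands. The difference between the classes was not tested. The values of Ccl21a, Ccl27a and Ccl19 are uncertain, since 71.6%, 45.0% and 52.0% of their 50-base sequences occur in other genes.

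Ccr2, the receptor of Ccl2 and Ccl7, stood at 0.141 FPKM (0.0461 to 0.236) in MHC control and at 3.23 FPKM (2.09 to 4.38) in Rbfox2 OE, a ratio of 22.9. Ccr1 stood at 0.499 and 3.81 FPKM, and Cxcr2, the receptor of Cxcl1, at 0.0939 and 1.88 FPKM, both with separate bounds. The mean of Cxcr2 over the groups was under 1 FPKM. Cxcr3, the receptor of Cxcl10, was at 0.0529 and 0.114 FPKM and Cxcr6, that of Cxcl16, at 0.0391 and 0.168 FPKM, near 0 in both groups with overlapping bounds. Of the receptors of Cxcl12, Ackr3 stood at 33.2 FPKM (22.4 to 44.1) and 23.3 FPKM (14.1 to 32.5), and Cxcr4 at 2.30 and 4.02 FPKM, with overlapping bounds for both. Of 23 chemokine receptors, 7 met the minimum mean, 4 of them through Rbfox2 OE alone. Of the 7, 3 were higher with separate bounds, Ccr2 and Ccr1 among them, and 0 were lower, beside 6.67% higher of all genes compared. Ccr2 and Ccr1 met the minimum through Rbfox2 OE alone and so had to be higher. With 1 FPKM added, the log2 ratio of Ccr2 was 1.89. Of the 3 receptors at 1 FPKM or more in MHC control, 0 had separate bounds.

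For the cytokines, the shared signalling subunit Il6st stood at 47.3 FPKM (32.6 to 62.0) in MHC control and 69.3 FPKM (48.2 to 90.3) in Rbfox2 OE, which overlap. The ligand-binding subunit Il6ra stood at 0.897 and 2.37 FPKM with separate bounds. Il1r1, the signalling receptor of IL-1, stood at 3.36 FPKM (1.99 to 4.73) and 9.98 FPKM (6.40 to 13.6). Il1rn, the antagonist that blocks this receptor, stood at 1.11 FPKM (0.436 to 1.79) and 15.3 FPKM (9.15 to 21.5), a log2 ratio of 2.95. Il1rn was at 1.43 times the level of Il1b in MHC control and 1.63 times in Rbfox2 OE. The decoy receptor Il1r2 stood at 0.103 and 3.00 FPKM, also with separate bounds. Of 18 cytokine receptor genes compared, 10 were higher with separate bounds and 0 lower, and 5 of the 18 met the minimum through Rbfox2 OE alone. Of the 13 at 1 FPKM or more in MHC control, 6 were higher with separate bounds. The shares over all genes were 6.67% of those compared and 4.99% of those at 1 FPKM or more in MHC control. Csf3r, the receptor of a neutrophil growth factor, and Csf2rb had log2 ratios of 2.06 and 1.74. Both, like Il6ra and Il1r2, met the minimum through Rbfox2 OE alone and so had to be higher.

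**Figure D3:**
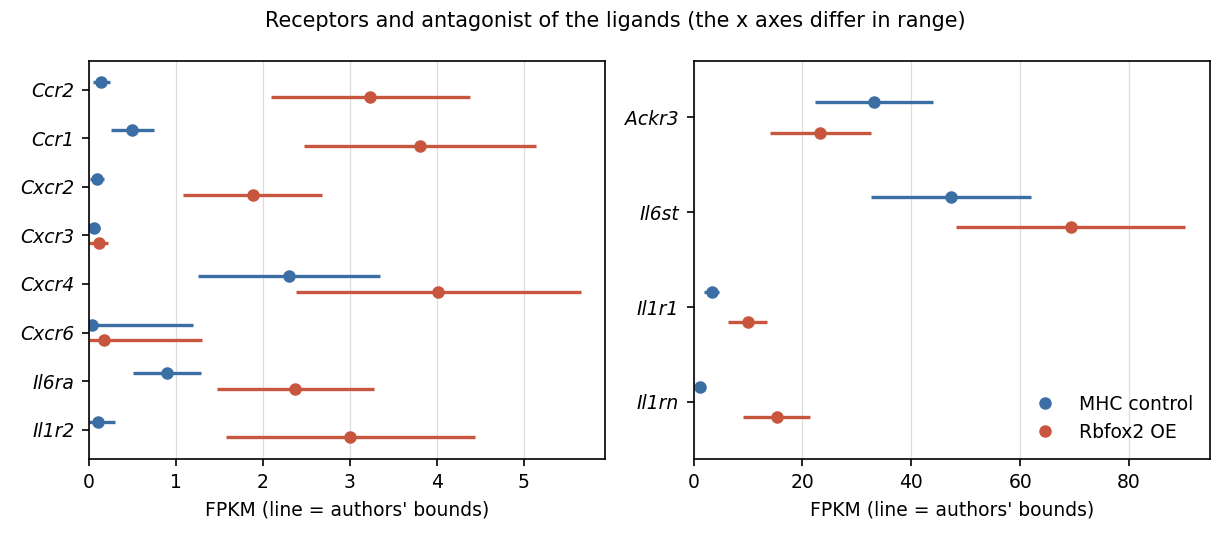
Level in FPKM (x axis, with a wider range on the right) of receptors of the 10 ligands, and of the IL-1 antagonist Il1rn, in MHC control (blue) and Rbfox2 OE (red). Points are the authors' pooled values and lines are the authors' bounds. Ccr2, Ccr1, Cxcr2, Il6ra, Il1r2, Il1r1 and Il1rn have separate bounds, and Cxcr3, Cxcr4, Cxcr6, Ackr3 and Il6st do not.

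Of 28 other inflammatory cytokines, 11 met the minimum mean, 1 of them higher and 1 lower with separate bounds. These counts are near the shares over all genes compared, 6.67% higher and 9.33% lower. After rescaling, 3 were higher and 1 lower, beside 1027 higher and 827 lower of 11810 genes compared. Il33, an alarmin held in nuclei of stromal cells, was the higher one as deposited, at 1.47 FPKM in MHC control and 11.3 FPKM in Rbfox2 OE. Il15, a growth factor of T and NK cells, was lower, at 23.5 FPKM (13.9 to 33.1) and 7.86 FPKM (4.19 to 11.5). Tnf stood at 1.21 FPKM (0.640 to 1.78) and 2.71 FPKM (1.61 to 3.81), with bounds that overlapped as deposited and were separate after rescaling. The median log2 ratio of the 11 was 0.17.

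Genes that signal upstream and downstream of the 10 were counted by pathway, beside the 6.67% of all genes compared that were higher with separate bounds. Of 23 genes of the NF-kappaB pathway, 2 were higher with separate bounds, the lipopolysaccharide co-receptor Cd14 (log2 ratio 1.84), itself a marker of monocytes, and the nuclear inhibitor-like factor Nfkbiz (1.25), and 0 were lower. The median of the 23 was 0.41. Of 9 genes of IL-6 signal transduction, 0 had separate bounds as deposited and 1, Pim1, was higher after rescaling. Among 8 genes of the inflammasome and of ligand processing, the inflammatory caspase Casp4 (1.55) and the pore former Gsdmd (1.24) were higher with separate bounds. The IL-1 beta protease Casp1 stood at 1.20 and 2.35 FPKM and the sheddase Adam10, which releases CXCL16, at 9.93 and 12.0 FPKM, both with overlapping bounds. Of 8 leukocyte adhesion genes compared, 4 were higher with separate bounds (1 of the 8 met the minimum mean through Rbfox2 OE alone): the leukocyte integrins Itgam (2.28) and Itgb2 (1.99), the selectin ligand Selplg (1.62) and the endothelial selectin Selp, at 16.2 and 36.3 FPKM.

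**Figure D4:**
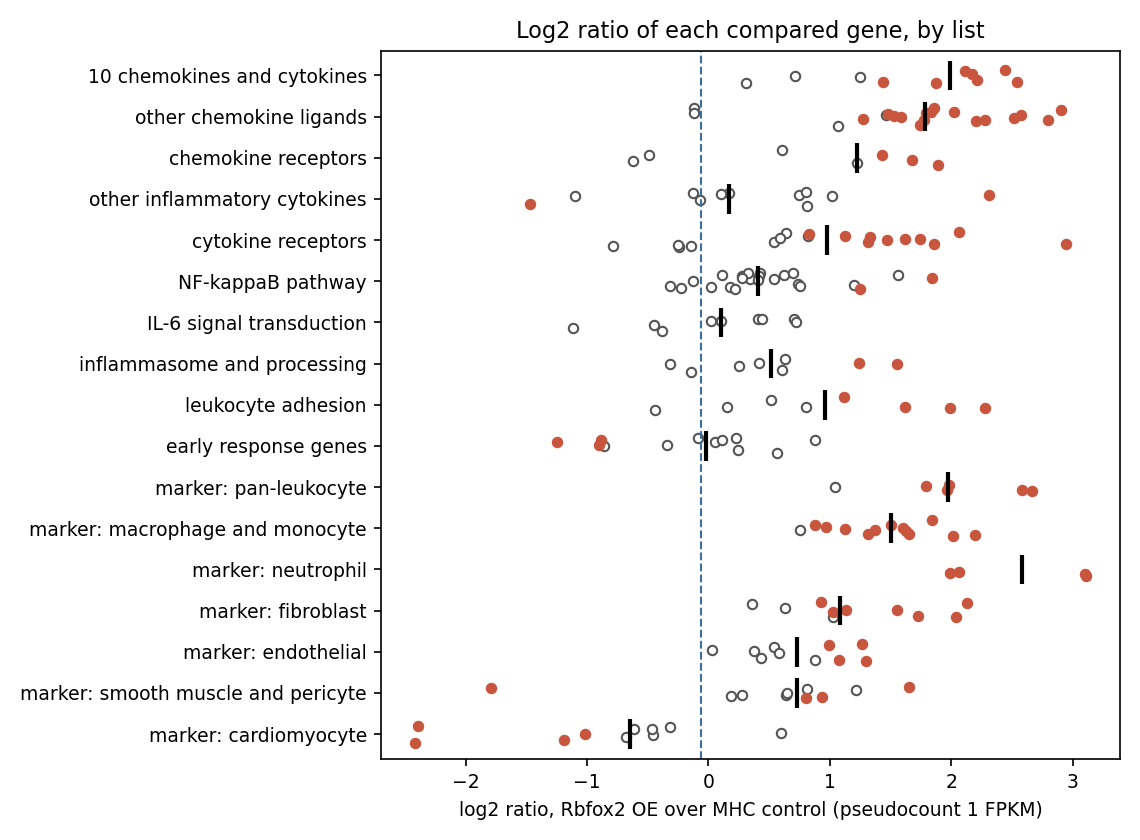
Log2 ratio of levels, Rbfox2 OE divided by MHC control with 1 FPKM added (x axis), for each gene with a mean of at least 1 FPKM, by gene list (y axis). Filled points have separate bounds, open points have overlapping bounds, black bars are list medians and the dashed line is the median of all genes compared (-0.06). The 10 chemokines and cytokines have a median of 1.99, or 1.65 without Il6 and Il1b, and the cardiomyocyte markers one of -0.65.

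Markers of leukocytes and other non-myocyte cells also stood higher in Rbfox2 OE, and in bulk RNA a larger share of a cell type and more RNA per cell cannot be told apart. Of all genes compared, 6.67% were higher with separate bounds, and of those at 1 FPKM or more in MHC control, 4.99% were. Of 6 pan-leukocyte markers, 5 were higher with separate bounds. Their summed level was 23.8 FPKM in MHC control and 133 FPKM in Rbfox2 OE, a ratio of 5.58. The leading markers Fcer1g and Tyrobp stood at 7.26 and 48.6 FPKM and at 7.97 and 34.4 FPKM. Of 13 macrophage and monocyte markers, 12 were higher with separate bounds, with summed levels of 133 and 445 FPKM and a ratio of 3.34. Among the 10 at 1 FPKM or more in MHC control, 9 were higher with separate bounds; the other 3 met the minimum mean through Rbfox2 OE alone. Lyz2 stood at 41.3 and 170 FPKM and C1qa at 28.3 and 71.7 FPKM.

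For the marker counts that follow, 6.67% of all genes compared were higher with separate bounds and 9.33% were lower. Among genes at 1 FPKM or more in MHC control, 4.99% were higher and 9.95% lower. Of 12 neutrophil markers, 4 met the minimum mean, all higher with separate bounds. However, 2 of these 4 met it through Rbfox2 OE alone and so had to be higher. The sum of the 12 was 9.26 FPKM in MHC control and 96.0 FPKM in Rbfox2 OE. S100a9 stood at 4.26 and 44.5 FPKM and S100a8 at 3.19 and 35.0 FPKM. The granule genes Mpo and Elane were listed at 0 in both groups, and Ly6g was at 0.0836 and 0.205 FPKM. The sums of 10 fibroblast markers (236 and 555 FPKM), 10 endothelial markers (246 and 432 FPKM) and 10 smooth muscle and pericyte markers (208 and 349 FPKM) had ratios of 2.35, 1.75 and 1.68, with separate bounds and higher values for 7, 4 and 3 of the 10. Their most abundant markers were Dcn (147 and 301 FPKM) and Col3a1 (16.2 and 74.2 FPKM), Cdh5 (47.5 and 88.0 FPKM) and Pecam1 (43.7 and 88.0 FPKM), and Rgs5 (71.9 and 127 FPKM) and Acta2 (43.7 and 140 FPKM). The bounds of Cdh5 and Rgs5 overlapped. In the last list Abcc9 was lower with separate bounds, at 58.5 and 16.2 FPKM. The 6 red blood cell markers summed to 56.6 and 295 FPKM, a ratio of 5.22, led by Hbb-bs at 42.1 and 209 FPKM. Of 12 cardiomyocyte markers, 10 had an estimate (all but Myh6 and Mb), with sums of 59304 and 37572 FPKM and a ratio of 0.634, and 4 of the 10 were lower with separate bounds. The part of these marker levels in the differences of the 10 genes was not tested.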

How the data were processed

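The 4 libraries were stranded polyadenylated RNA libraries, grouped from their titles into MHC control and Rbfox2 OE, 2 each. Per the submitters' processing notes, tools used included STAR 2.4.2a and Cuffdiff 2.2.1, with GRCm38 (mm10). The deposited values are FPKM in the Cuffdiff layout, per the file headers, with 1 pooled value and 2 bounds (also in FPKM) for each gene and group. The number of unused columns of values per library was 0. The limma fit planned for values per library could not be run, so no p-values were computed.

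From the deposited FPKM, log2 ratios were computed with a pseudocount of 1 FPKM for genes whose 2 groups averaged 1 FPKM or more, using Python 3.11.15 and pandas 2.3.3. Counts use rows by Ensembl identifier. Of rows that share a gene name, the higher was taken for the lists (Itgam). Coordinates come from GENCODE M21 (GRCm38), which held 99.2% of the identifiers. Other pseudocounts, thresholds, minimums and scalings were tried. The calculations were tested on simulated data.

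The 10 genes and the lists were chosen with earlier results of these data known. The genes named are the 10, receptors that bind them, and up to 4 per pathway list with the largest log2 ratio among those with separate bounds. Up to 2 per marker list were taken by level. One receptor gene is not reported here by name. Defining markers, cytokines, receptors and signalling genes with overlapping bounds that are named beside them were chosen after their values were seen.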

Additional observations from a re-analysis of the deposited data

How the results depend on the processing

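No paired analysis was possible because each group has a single pooled FPKM value, and for the same reason no library could be left out in turn. How far the libraries of a group differ is unknown. All 40 log2 ratios of the 10 genes under another pseudocount or scaling stayed above 0, which was fixed in advance. A pseudocount cannot change the sign of a ratio, and the other scalings tried raised Rbfox2 OE relative to MHC control. The count of 7 genes with separate bounds became 3 of the 5 genes that share their locus with no other gene, a setting chosen after seeing the data, since fewer genes were counted. The count of 8 genes at 2-fold likewise became 3 of those 5, and a 4-fold threshold gave 5 of the 10. Among all compared genes alone in their locus, 9.15% were higher with separate bounds and 7.83% were at least 2-fold higher. At least 4-fold higher were 1.16% of all genes compared, against 6.97% at 2-fold. Under the other settings the counts of the 10 genes lay within 1.5 times of the reported ones. The median log2 ratio of 1.99 was 1.71 as a mean and 2.13 after rescaling, a setting also chosen after seeing the data. Without Il6 and Il1b, which met the minimum through Rbfox2 OE alone, the median was 1.65. The depth is unknown, so what it limits could not be given.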

Other observations

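Of 12 genes of the early response to stress, Atf3, Jun and Dusp1 were lower in Rbfox2 OE with separate bounds and 0 were higher. By this rule 9.33% of all genes compared were lower, and 9.95% of those at 1 FPKM or more in MHC control. Junb could not be judged by its bounds, which do not enclose its values. It was listed at 192 FPKM (0 to 1.44) in MHC control and 225 FPKM (0 to 1.23) in Rbfox2 OE. The transcription factor Atf3 stood at 89.9 FPKM (54.5 to 125) in MHC control and at 37.4 FPKM (21.5 to 53.3) in Rbfox2 OE. Jun, a subunit of AP-1, stood at 183 and 97.3 FPKM, and the phosphatase gene Dusp1 at 174 and 93.6 FPKM. After rescaling, the bounds of all 3 overlapped and those of Ier3 were separate and higher.

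Markers of lymphocytes and mast cells were low in both groups. The summed level of 12 T and NK cell markers was 1.27 FPKM in MHC control and 4.55 FPKM in Rbfox2 OE, and the highest of them in Rbfox2 OE, Trac, was at 1.54 FPKM. The 7 B cell markers summed to 3.99 and 5.21 FPKM, most of it from Ighm at 2.95 and 3.86 FPKM with overlapping bounds. The 7 mast cell markers summed to 1.19 and 3.44 FPKM.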
